A study of Drosophila melanogaster with 3 samples.

Results

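The vacuolar ATPase (V-ATPase) subunit genes of Drosophila melanogaster were taken as all protein-coding genes of the dm6 annotation whose symbol starts with Vha. The rule found 33 genes among the 13968 protein-coding genes on the chromosome arms: 13 code for subunits of the peripheral V1 sector and 20 for subunits of the membrane V0 sector and its accessory proteins. Peaks of Antennapedia (Antp), the Hox protein that sets the identity of thoracic segments, were read at these genes. The rule uses gene symbols alone and no measured value.

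The V-ATPase is a rotary proton pump. ATP hydrolysis in the V1 head turns a central stalk and a ring of membrane proteolipids, and the turning ring carries protons across the membrane past the a subunit. It acidifies lysosomes, endosomes and secretory vesicles, energises epithelia such as the Malpighian tubules of insects, and serves as a platform for nutrient sensing by the mTor kinase. In Drosophila many subunits are coded by families of paralogues, of which usually one is widely expressed. The transcription factor Mitf is known to activate V-ATPase genes in the fly through E-boxes.

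Chromatin immunoprecipitation and sequencing (ChIP-seq) was done on whole embryos of both sexes aged 0 to 24 h from the AntP-MiMIC-GFP strain, in which an artificial exon coding for enhanced green fluorescent protein (eGFP) sits in an intron of Antp, so that the gene makes an Antp-eGFP fusion. There is 1 group of 3 biological replicates, all of this 1 line. Sonicated chromatin of 200 to 800 bp was immunoprecipitated with anti-GFP, although the antibody field of the labels reads Antp. All tissues and ages of the embryo are mixed in each sample, so a site bound strongly in few cells and one bound weakly in many cannot be told apart, and libraries of embryos without the fusion were not analysed here.

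Each replicate has a list of 30000 entries, the pooled replicates have another list of 30000, and the final list, made by the irreproducible discovery rate (IDR) procedure, holds 4351 peaks with a deposited signal from 103 to 4656 and a median of 172. The signal is a strength value of unstated scale from the peak caller, and it is compared only within a list. The IDR peaks are the 4351 pooled entries with the highest signal, and the 4351st entry of replicates 1, 2 and 3 has a signal of 34.4, 35.7 and 39.6. These 4351 entries of a replicate are called its strongest entries below. The lists hold no read counts, so the depth of each library is unknown.

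A gene was called bound when the summit of an IDR peak lay in its span or within 1000 bp of it. By this rule 14 of the 33 V-ATPase genes were bound, and 11 of the 14 had a summit within 500 bp of one of their own transcription start sites (TSSs). All of these 11 summits lay upstream of the TSS. The sequences below show what lies at the summit of 7 of them, for the B subunit (Vha55), the A subunit (Vha68-1 and Vha68-2), the G subunit (Vha13), the c subunit (Vha16-5) and the e subunit (VhaM9.7-b and VhaM9.7-c). Each is the stretch free of annotated exons within 100 bp of the summit, read from the RefSeq sequence of dm6 and written 5′ to 3′ along the strand of the gene. They cover chr3R:12627830-12627980 (minus strand), chr2L:13004108-13004288 (minus), chr2L:12974092-12974292 (plus), chr3R:19644387-19644556 (minus), chr2L:10737237-10737344 (minus), chr3L:21539448-21539572 (plus) and chr3L:4186866-4186996 (minus). Capitals mark either the Hox core, a homeodomain recognition core (TAAT, then T or G, then A or G) on either strand, or the Ohler1 element GGTCACAC on either strand, a core promoter element known for the zinc finger protein M1BP.
Vha55: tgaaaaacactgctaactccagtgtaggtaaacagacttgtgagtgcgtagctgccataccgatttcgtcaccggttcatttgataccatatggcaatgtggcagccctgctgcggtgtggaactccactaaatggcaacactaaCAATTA
Vha68-1: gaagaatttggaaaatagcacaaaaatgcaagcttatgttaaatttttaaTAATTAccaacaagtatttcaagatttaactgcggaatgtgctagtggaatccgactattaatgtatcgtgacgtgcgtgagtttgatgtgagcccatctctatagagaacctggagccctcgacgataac
Vha68-2: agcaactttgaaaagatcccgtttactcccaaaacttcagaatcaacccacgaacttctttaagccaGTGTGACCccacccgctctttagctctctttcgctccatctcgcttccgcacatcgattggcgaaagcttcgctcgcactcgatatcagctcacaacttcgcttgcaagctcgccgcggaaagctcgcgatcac
Vha13: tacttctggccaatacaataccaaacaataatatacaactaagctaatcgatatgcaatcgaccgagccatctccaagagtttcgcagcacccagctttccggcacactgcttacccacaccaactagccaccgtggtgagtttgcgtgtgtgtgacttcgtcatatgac
Vha16-5: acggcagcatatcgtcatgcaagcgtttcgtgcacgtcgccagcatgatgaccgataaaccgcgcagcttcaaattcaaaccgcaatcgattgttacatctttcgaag
VhaM9.7-b: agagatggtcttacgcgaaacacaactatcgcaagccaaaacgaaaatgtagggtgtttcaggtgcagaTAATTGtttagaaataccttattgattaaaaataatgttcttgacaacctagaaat
VhaM9.7-c: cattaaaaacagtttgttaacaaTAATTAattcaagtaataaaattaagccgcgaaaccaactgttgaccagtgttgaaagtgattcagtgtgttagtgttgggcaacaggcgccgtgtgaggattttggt
In Vha55, Vha68-1, Vha13 and VhaM9.7-c the printed stretch ends 1 base before the TSS. The Hox core stands once in Vha55, Vha68-1, VhaM9.7-b and VhaM9.7-c, and the Ohler1 element stands once in Vha68-2. The stretches at Vha13 and Vha16-5 hold neither. A match of letters is a description of the window and was not tested for binding.

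The share of V-ATPase genes bound was 42.4% (14 of 33, exact 95% interval 25.5% to 60.8%), against 30.0% of all protein-coding genes. When a summit counted only for the gene with the nearest TSS, 8 of 33 genes (24.2%, 11.1% to 42.3%) were bound, against 20.1% of all protein-coding genes. A summit within 500 bp of an own TSS was found for 11 of 33 (33.3%, 18.0% to 51.8%), against 20.8%. In the strongest entries of all 3 replicates 11 of 33 were bound, against 23.4%. The V-ATPase share lay above that of all protein-coding genes under each of the 4 rules, and each interval included the share of all protein-coding genes. The direction turned when the span was not extended: 2 of 33 V-ATPase genes (6.06%) had an IDR summit inside the gene itself, against 11.8% of all protein-coding genes. The intervals are over genes and cover counting error only, and neighbouring genes can share a summit, so they are descriptions.

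**Figure D1:**
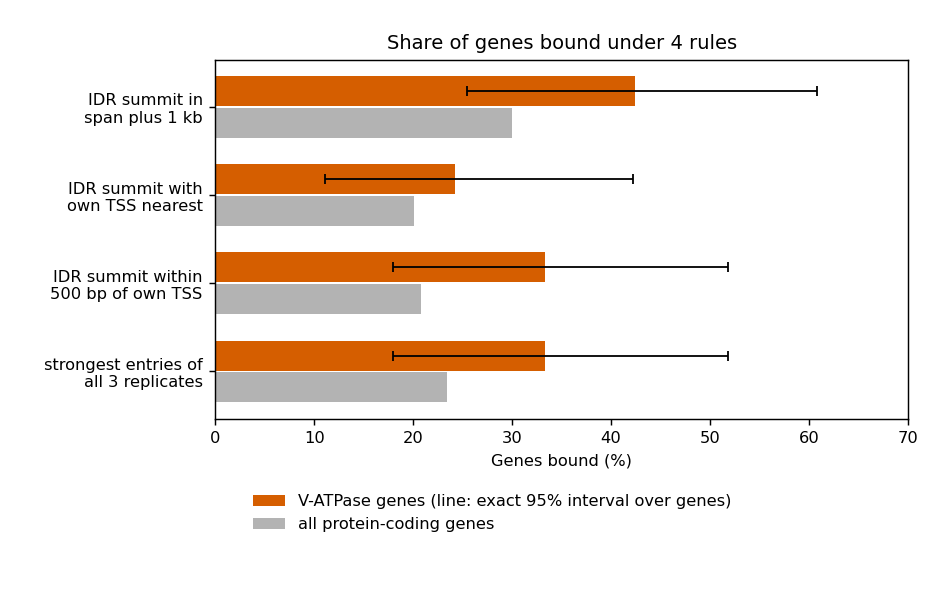
Percent of genes bound (horizontal axis) under 4 rules, for the 33 V-ATPase genes (orange, with exact 95% intervals over genes) and all 13968 protein-coding genes (grey). The V-ATPase bars reach 24.2% to 42.4% and the grey bars 20.1% to 30.0%, and each interval spans the grey bar's end.

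V-ATPase genes are short, with spans of 494 to 11825 bp and a median of 1732 bp, against a median of 2164.5 bp over all protein-coding genes. Among the 11832 protein-coding genes with a span in that range, 27.5% were bound. Of the 16 V-ATPase genes shorter than their median, 8 were bound, while 19.1% of protein-coding genes of that size were. Of the 17 others 6 were bound (35.3%), beside 34.1% of protein-coding genes of that size. By the rule of a summit within 500 bp of an own TSS, 5 of the 16 shorter genes (31.2%, against 13.9%) and 6 of the 17 others (35.3%, against 25.5%) were bound. Split by exons, 4 of 9 V-ATPase genes with 1 exon were bound (Vha16-5, Vha36-1, Vha14-1 and VhaM9.7-c), or 44.4%, against 12.9% of the 1811 protein-coding genes with 1 exon. Of the V-ATPase genes with more exons 10 of 24 were bound (41.7%, against 32.5%). By nearest TSS 2 of the 9 with 1 exon (22.2%, against 8.28%) and 6 of the 24 others (25.0%, against 21.8%) were bound. None of these differences was tested.

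Bound genes lay in both sectors of the complex. They covered 10 of its 13 lettered subunits, and the subunits without a bound gene were E (Vha26), H (VhaSFD) and c'' (VhaPPA1-1 and VhaPPA1-2). A subunit counted as covered when any of its genes was bound, so subunits with several genes had more chances. Subunits a, C, d and F were covered only through summits nearest another gene. Of the V1 genes 7 of 13 were bound, all 7 of them also in the strongest entries of all 3 replicates. Of the V0 and accessory genes 7 of 20 were bound, 4 of them in all 3 replicates, which are shares near the 30.0% and 23.4% of all protein-coding genes. Of the 5 genes without a paralogue 3 were bound (Vha13, Vha44 and Vha55). Of the 9 paralogues taken from general knowledge as the main ones (widely expressed, or for the a subunit known from neurons and epithelia) 6 were bound, 5 of them in all 3 replicates, and of the 19 other paralogues 5 were bound, 3 of them in all 3 replicates. The 19 include both accessory genes, VhaAC45 (not bound) and VhaAC45RP (bound), since no main one was set for them. By nearest TSS 2 of the 5, 3 of the 9 and 3 of the 19 were bound. Over all protein-coding genes the shares were 30.0% by span and 20.1% by nearest TSS. The 3 groups also differ in median span (4068, 2220 and 1371 bp), and longer protein-coding genes were bound more often. These groups are small and the differences between them were not tested. The counts per subunit below rest on few genes and are descriptions.

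**Figure D2:**
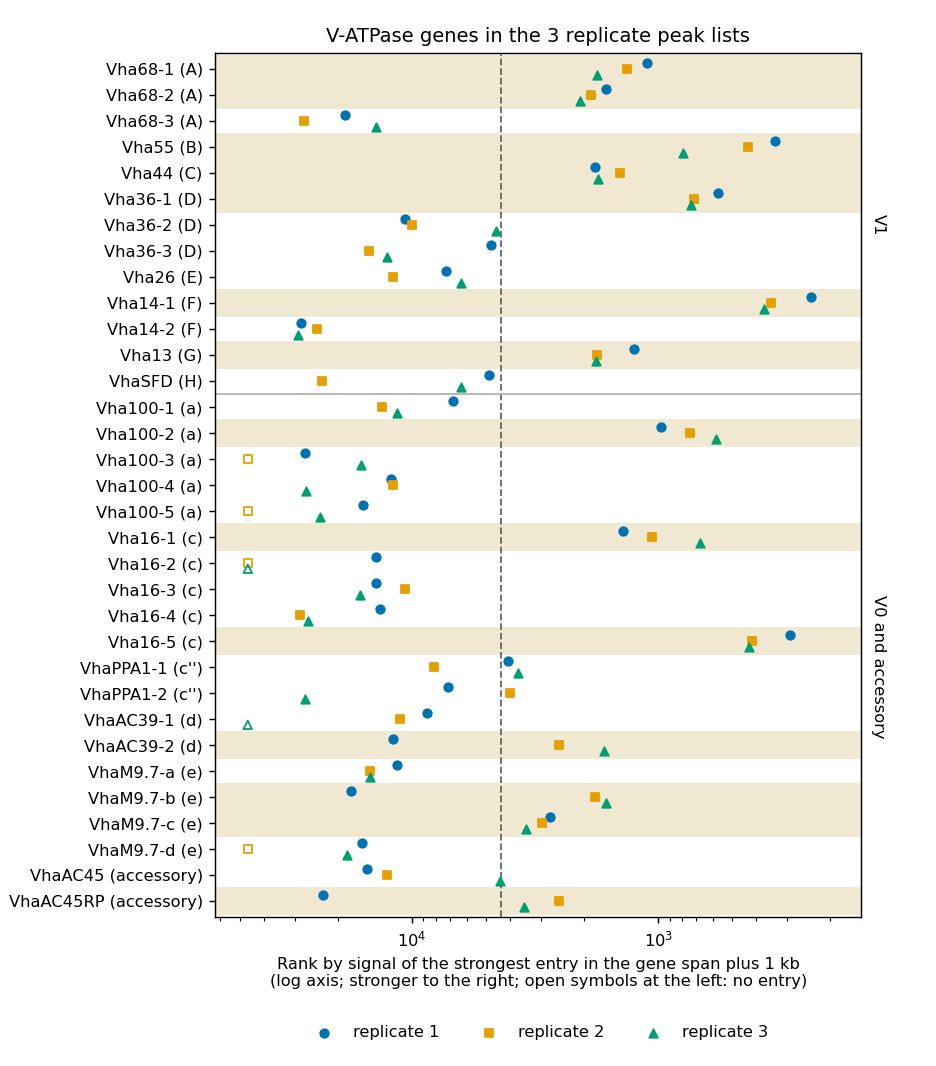
Rank by signal (log axis, strongest to the right) of the strongest entry in the span plus 1000 bp of each V-ATPase gene in replicates 1 (circles), 2 (squares) and 3 (triangles), with the subunit in brackets. Open symbols mark no entry, the dashed line is rank 4351, and shaded rows are the 14 genes with an IDR summit. In 11 of the shaded rows all 3 replicates lie to the right of the line, and in VhaAC39-2, VhaM9.7-b and VhaAC45RP replicate 1 lies to its left.

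In the catalytic head, made of alternating A and B subunits, 3 of 4 genes were bound, against 30.0% of all protein-coding genes. A group of 4 genes is too small to set against that share. Vha55 (FBgn0005671, chr3R:12623762-12627829, minus strand) codes for the B subunit, which binds nucleotide without the main catalytic site and has no paralogue. Its summit lay 51 bp upstream of a TSS in an IDR peak of signal 424, rank 478 of 4351. It had rank 336 in replicate 1, 433 in replicate 2 and 795 in replicate 3, with signals of 155, 156 and 118, so it was among the strongest entries in all of them. Snx3, a sorting nexin gene on the other side of the summit, starts 202 bp from the most upstream TSS of Vha55 and points away from it.

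The catalytic A subunit has 3 genes, which lie near each other on arm 2L. Vha68-2 (chr2L:12974322-12978607, plus strand), the widely expressed one, had a summit 130 bp upstream of its TSS with signal 204, and replicate ranks of 1631, 1875 and 2076. No other protein-coding gene lay within 1000 bp of that summit. Vha68-1 (chr2L:13000770-13004107, minus strand) had a summit 81 bp upstream with signal 246, and ranks of 1109, 1338 and 1782. All 6 ranks lay among the strongest entries, and replicate 1 was highest at both genes.

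Vha68-3 starts 178 bp beyond the end of Vha68-2 and had no IDR summit. Its strongest entries stood at ranks 18760, 27559 and 13986 in the 3 replicates, far down every list. The summit of Vha68-1 is shared with mTor, the kinase that senses nutrients at the lysosome, whose TSS lies 292 bp from the summit on the other strand. mTor is therefore bound by the same peak, and the 2 genes cannot be told apart as its target.

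The central stalk links the head to the ring and consists of subunits D and F. Vha36-1 (arm 2R, plus strand, 1064 bp, 1 exon), the widely expressed D gene, had the summit closest to a TSS of its own, 28 bp upstream. The peak's signal was 362 (rank 667), and the replicates placed it at 571, 719 and 736. Vha36-2 and Vha36-3, the other D genes, were not bound, although replicate 3 placed an entry at Vha36-2 at rank 4576 and replicate 1 placed one at Vha36-3 at rank 4780, both just outside the strongest entries. For Vha36-3 the nearest IDR summit lay 1733 bp from the gene, with signal 346, nearest to AANATL7.

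Vha14-1, the widely expressed F gene (659 bp, minus strand), carried the strongest peak of all V-ATPase genes, with signal 531 and rank 307. The replicates placed it at 239, 347 and 371, with signals of 184, 170 and 173. Its summit, however, lay 172 bp beyond the gene's 3' end and 830 bp from the gene's TSS. The nearest TSS, 298 bp away, was that of Gmppa, a GDP-mannose pyrophosphorylase gene that follows Vha14-1 on the same strand, and the summit lay upstream of it. Vha14-2, the other F gene, had no entry in the pooled list and ranks of 28289, 24283 and 28955 in the replicates.

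Subunits C, E, G and H belong to the part of the complex that holds the head still, and each is coded by 1 gene. Vha13, the G subunit (chr3R:19643018-19644386, minus strand), had a summit 70 bp upstream of its TSS with signal 216, and ranks of 1252, 1772 and 1796. Vha44, the C subunit, which leaves the complex when V1 and V0 come apart, had a summit with the same rounded signal, 216, and ranks of 1809, 1426 and 1751. Both were bound in all 3 replicates. The Vha44 summit lay 109 bp upstream of its TSS but only 14 bp from a TSS of Hmgs, the HMG-CoA synthase gene. Hmgs points the other way from a start 123 bp apart from that of Vha44. The span of Hmgs overlaps the head of Vha44, and the summit lay in the 5' UTR of Hmgs.

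Vha26 (E) and VhaSFD (H) were not bound. At Vha26 the strongest pooled entry, signal 76.1 at rank 6474, lay 207 bp upstream of its TSS. The nearest TSS to that entry was that of noi. The strongest replicate entries at Vha26 had ranks of 7278, 11907 and 6301. At VhaSFD the strongest pooled entry had rank 8198 and lay beyond the 3' end, next to Cyt-c-p. The VhaSFD ranks were 4854, 23167 and 6302, so replicate 2 stood apart. An IDR summit of signal 203 near Cyt-c-p lay 2059 bp from VhaSFD, outside the 1000 bp limit.

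In the membrane sector the c subunit builds the proteolipid ring, and 2 of its 5 genes were bound. Vha16-5 (chr2L:10736319-10737043, minus strand) had the strongest peak in V0, with signal 488 and rank 357, and replicate ranks of 292, 416 and 428. Its summit lay 294 bp upstream of the Vha16-5 TSS and 8 bp from that of CG12299, a divergent neighbour. A second summit beyond its 3' end, with signal 126, lay nearest to Nup107, a nuclear pore gene, and had ranks of 6154, 2529 and 4867, so that 1 replicate of 3 held it among the strongest entries.

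Vha16-1, the widely expressed c gene, had a summit of signal 288 lying 93 bp upstream of a TSS, with ranks of 1395, 1064 and 679. Here replicate 3 was highest, and all 3 held the peak among their strongest entries. A second summit lay in an intron 1643 bp from the nearest TSS, with signal 140 and ranks of 2678, 5724 and 1851. Only Vha16-1 and Vha100-2 had IDR summits within the span itself. Vha16-2, Vha16-3 and Vha16-4 were not bound. Vha16-2 and Vha16-3, which lie 985 bp apart, share an entry at rank 14023 in replicate 1, and Vha16-2 had no entry at all in replicates 2 and 3.

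The a subunit holds the paths by which protons enter and leave the ring, and of its 5 genes only Vha100-2 (chr3R:18390323-18399169, minus strand) was bound. It had 3 IDR summits, the most of any V-ATPase gene. The strongest, of signal 356 and rank 684, lay in an intron 350 bp upstream of the gene's second TSS, with ranks of 979, 742 and 583. The other 2 had signals of 132 and 121, and replicate ranks of 2076, 14604 and 2383 for the first and 3105, 11617 and 5458 for the second, so by this match of summits within 100 bp replicate 2 was far lower at both. At the third summit that low value depends on the match, since another replicate 2 entry, at rank 2111, overlaps the peak and was taken when entries were matched by overlap. All 3 summits lay in the 5' UTR of Vti1b, a SNARE gene that overlaps Vha100-2 on the opposite strand and whose TSS was nearest to each of them.

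Vha100-1, the a subunit known for its role in neurons, was the unbound V-ATPase gene with the strongest pooled entry, at rank 5900 with signal 81.4. That entry lay 208 bp upstream of its TSS and nearest to dgt6, and its gene's ranks were 6827, 13300 and 11488. Vha100-4, which lies 517 bp from Vha100-2, had ranks of 12197, 11962 and 26910. Vha100-3 and Vha100-5 had no pooled entry and none in replicate 2.

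**Figure D3:**
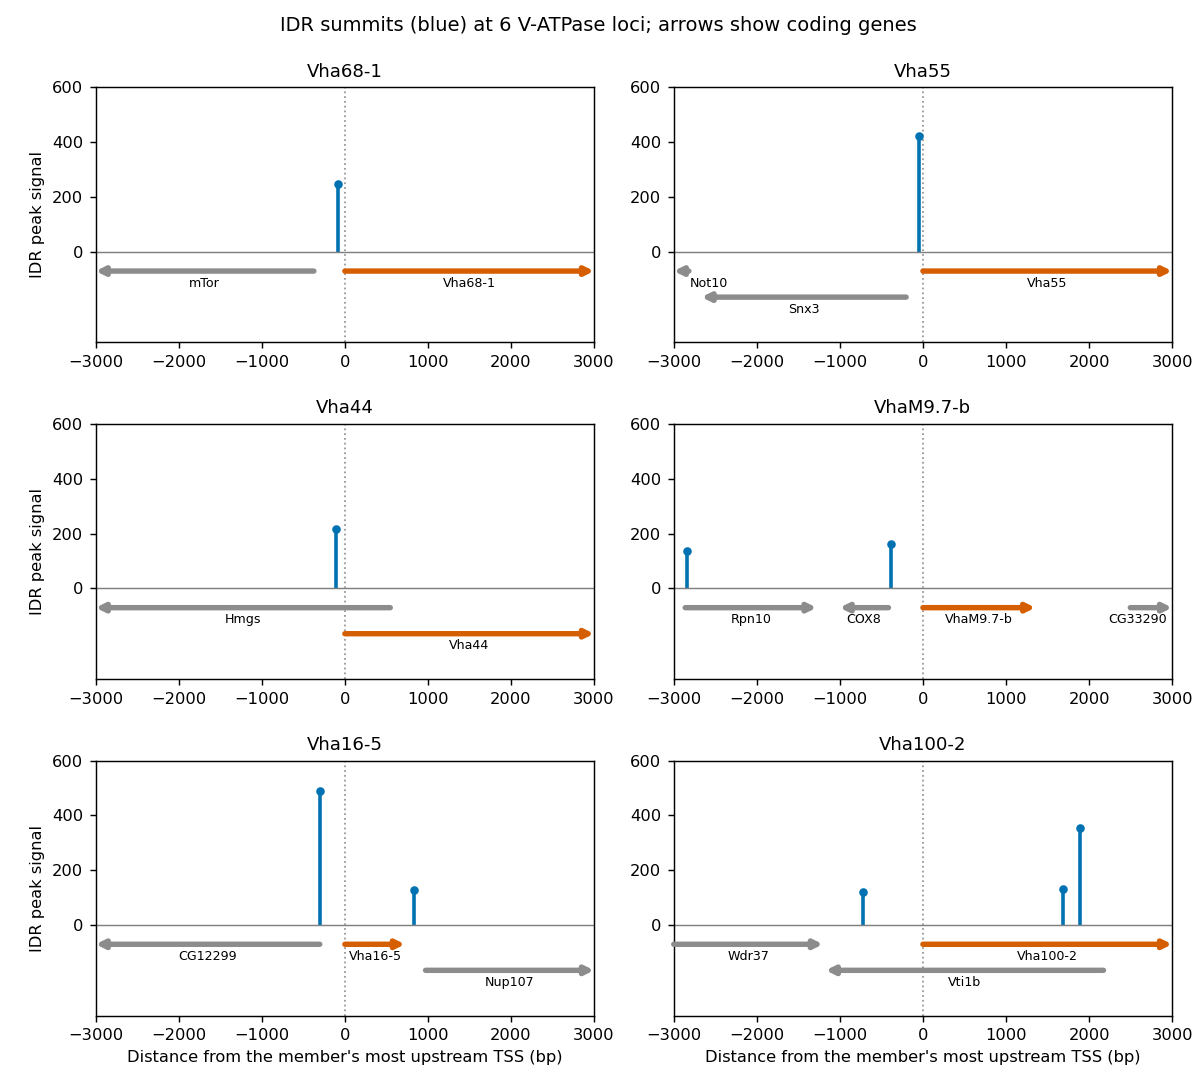
IDR summits (blue, height is the signal deposited for the peak) and protein-coding genes (arrows in the direction of transcription, V-ATPase genes in orange) within 3000 bp of the most upstream TSS of 6 V-ATPase genes, each turned so that it points to the right. At Vha68-1, Vha55, VhaM9.7-b and Vha16-5 a summit stands at the head of the gene beside a gene pointing the other way. At Vha44 the summit stands within Hmgs, and at Vha100-2 the 3 summits stand within Vti1b. Both of these neighbours overlap the head of the V-ATPase gene and point the other way.

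The e subunit is a small hydrophobic protein of V0, and 2 of its 4 genes were bound. VhaM9.7-c (chr3L:4186018-4186865, minus strand) had a summit 31 bp upstream of its TSS with signal 141, and ranks of 2741, 2961 and 3435, which agreed closely. VhaM9.7-b (chr3L:21539862-21541215, plus strand), the widely expressed e gene, had a summit of signal 162, but its replicates were far apart, with ranks of 17768, 1804 and 1634 and signals of 17.5, 67.1 and 76.8. That summit lay 390 bp upstream of VhaM9.7-b and 25 bp from the TSS of COX8, a cytochrome c oxidase subunit gene on the other strand. VhaM9.7-a and VhaM9.7-d were not bound, with best pooled ranks of 11696 and 26519.

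The d subunit couples the ring to the central stalk. VhaAC39-2 was bound through a summit 1382 bp from its TSS, beyond its 3' end and 72 bp from the TSS of unk, with signal 156. Its replicates placed it at 11932, 2542 and 1664, so replicate 1 did not hold it among its strongest entries. VhaAC39-1, the widely expressed d gene, had no pooled entry, ranks of 8711 and 11199 in replicates 1 and 2, and none in replicate 3. At the d subunit the peak was therefore found at the paralogue not known as widely expressed.

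The c'' genes VhaPPA1-1 and VhaPPA1-2, a tandem pair of proteolipids, were not bound in the IDR list, and their best pooled ranks were 6989 and 13218. VhaPPA1-1 had replicate ranks of 4083, 8143 and 3717, inside the strongest entries of replicates 1 and 3. Its best pooled entry had a summit nearest RpS5b, and the replicate entries were not matched to that summit. VhaPPA1-2 had ranks of 7131, 4020 and 27173, and an IDR summit of signal 115 nearest Nup93-2 lay 1226 bp away, the closest of those outside the 1000 bp limit.

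Of the accessory proteins, which assist assembly and sorting of the pump in mammals, VhaAC45 was not bound. Its strongest pooled entry had a summit 10 bp upstream of its TSS at rank 8335, and its ranks were 15281, 12683 and 4386, of which that of replicate 3 was just outside the strongest entries. VhaAC45RP was bound through the weakest of the V-ATPase peaks, with signal 117 and rank 3717, whose summit lay 347 bp beyond its 3' end. The replicate ranks were 23100, 2536 and 3496. ATP6AP2, the accessory gene formerly called VhaM8.9, falls outside the naming rule and was not bound, with a best pooled rank of 6434.

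Taken over the 14 bound genes there were 18 IDR summits, each matched by an entry with its summit within 100 bp in every replicate. Of the 18, 11 were among the strongest entries of all 3 replicates, 5 of 2 replicates and 2 of 1 replicate. The IDR peaks are the strongest pooled entries of these same replicates. No such counts over all 4351 IDR peaks are set beside these, so they do not tell V-ATPase peaks from others. The median rank of the 18 was 1720 in replicate 1, 1788 in replicate 2 and 1766.5 in replicate 3, and the lowest-placed stood at 23100, 14604 and 5458. Replicates 1, 2 and 3 held 12, 15 and 15 V-ATPase genes as bound in their own strongest entries, beside 29.5%, 30.0% and 29.4% of protein-coding genes. The 3 bound genes missing from all-replicate support, VhaM9.7-b, VhaAC39-2 and VhaAC45RP, were each low in replicate 1 only. When replicate 1 was left out 14 genes (42.4%) were bound in both others, against 25.6% of all protein-coding genes.

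The signal of the 18 peaks ran from 117 to 531 with a median of 209.9, and 10 of 18 lay above the IDR median of 172. The 11 with a summit within 500 bp of an own TSS had a median of 246, and 9 of them lay above 172. Over the 2225 IDR peaks within 500 bp of any protein-coding TSS the median was 180. V-ATPase peaks were thus spread from rank 307 to rank 3717 of the IDR list, with none at its very top.

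The 11 promoter summits lay 28 to 390 bp upstream of an own TSS. In 7 genes (Vha68-1, Vha68-2, Vha55, Vha36-1, Vha13, Vha16-1 and VhaM9.7-c) the summit lay within 500 bp of the gene's own TSS with no other TSS nearer, and all 7 lay 28 to 130 bp upstream, with a median of 70 bp. Over all protein-coding genes 2279 such summits had a median distance of 87 bp to either side. Of them 80.5% lay upstream, and 55.7% lay upstream within 150 bp, a distance chosen after the values were seen. With neighbours' summits included, all 11 V-ATPase summits within 500 bp lay upstream, beside 85.1% over all protein-coding genes. The upstream placement is thus that of most promoter summits in the list.

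**Figure D4:**
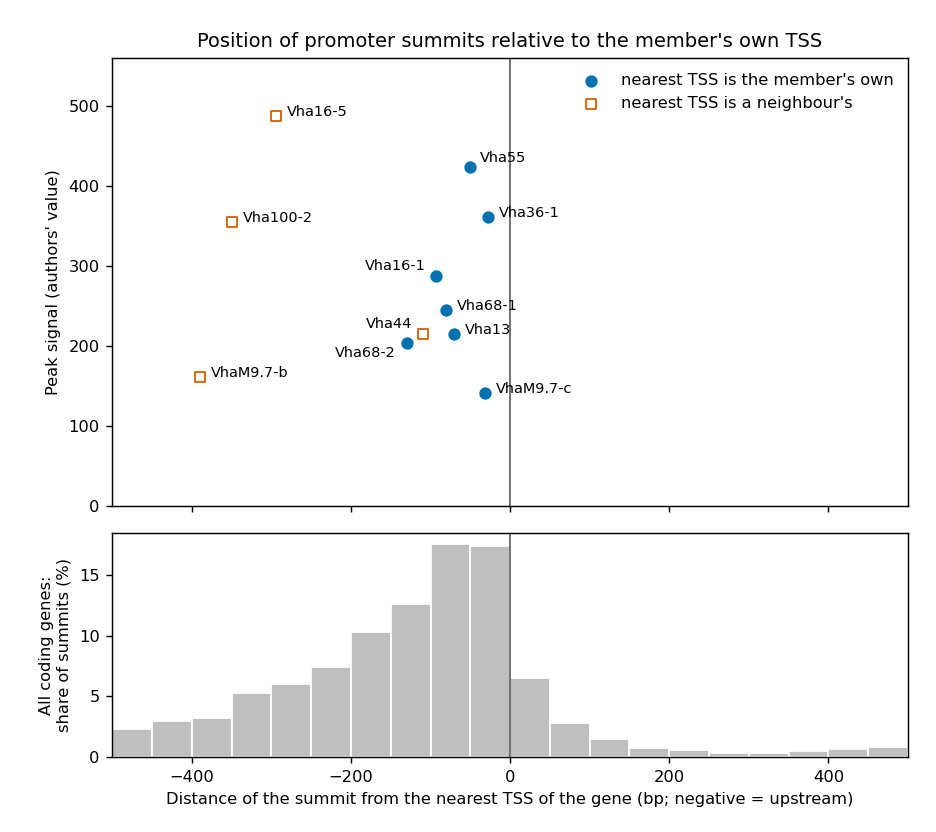
Upper panel: signal of the 11 V-ATPase IDR peaks with a summit within 500 bp of an own TSS against the distance of the summit from it (negative is upstream), as filled circles where the own TSS is the nearest and open squares where a neighbour's is nearer. All 11 lie upstream, the filled circles 28 to 130 bp from the TSS. Lower panel: the same distance for all protein-coding genes, as percent of summits in bins, which is highest just upstream of the TSS.

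Neighbours share most of these summits. Another protein-coding gene lay at the summit or within 1000 bp for 15 of the 18 summits (83.3%), against 46.6% of the 3896 IDR summits near any protein-coding gene. These shares are not counted alike. The 3896 summits were each counted once, while V-ATPase summits were picked through a gene. A summit near several genes has more chances to be picked that way, which can raise the V-ATPase share. The size of this effect was not measured, and the difference between the shares was not tested. Of the 14 bound genes 8 (57.1%) had a summit for which their own TSS was the nearest, against 62.0% of all bound protein-coding genes. The 6 bound only through a summit nearer to another gene were Vha16-5, Vha14-1, Vha44, VhaM9.7-b, Vha100-2 and VhaAC39-2. In Vha16-5, Vha44, VhaM9.7-b and Vha100-2 that gene pointed the opposite way from a start 302, 123, 415 and 67 bp from a start of the V-ATPase gene, and in Vha14-1 and VhaAC39-2 it lay downstream on the same strand.

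Of the elements searched within 100 bp of the 18 summits, on both strands, the E-box CACGTG bound by Mitf was found at 1 (Vha44), against 2.78% of all 4351 IDR summits. The DNA replication-related element TATCGATA was found at 1 (VhaAC39-2; 4.80% of all), Ohler1 at 1 (Vha68-2; 2.80%), the GAGA element GAGAGAG at 1 (the second summit of Vha100-2; 4.55%) and the initiator of ribosomal protein genes TTCTTTTC at none (2.32%). The Hox core was found at 9 of 18, against 40.3%. These counts are too small to set against the shares of the list, and no test was made. The windows at V-ATPase summits had a median GC content of 42.8% (32.8% to 59.2%), against 38.3% over all IDR summits.

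Promoters were read as well, from 250 bp upstream to 50 bp downstream of the most upstream TSS of each gene, whether bound or not. The E-box stood in 3 of the 33 V-ATPase promoters (Vha44, VhaM9.7-d and VhaAC45RP; 9.09%, against 4.20% of all protein-coding promoters). Ohler1 stood in 4 (Vha68-2, Vha14-1, Vha26 and Vha100-1; against 7.69%), the DNA replication-related element in 2 (VhaSFD and Vha55; against 9.36%), the GAGA element in 2 (against 5.86%) and the ribosomal initiator in 2 (against 2.90%). The Hox core stood in 19 of 33 (57.6%), beside 55.2% of all. Of the genes with Ohler1 in the promoter, only Vha68-2 had an IDR summit within 500 bp of its TSS. Vha14-1 was bound only through the summit beyond its 3' end, 830 bp from its TSS, and Vha26 and Vha100-1 were not bound.

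Genes that act with the pump were read from a list of 31, of which 12 (38.7%) were bound by the span rule, against 30.0% of all protein-coding genes. By nearest TSS 7 were bound and in the strongest entries of all 3 replicates 8 (25.8%), both near the 20.1% and 23.4% of all protein-coding genes. By role, 1 of 3 genes of assembly and control was bound, 3 of 9 of nutrient sensing, 4 of 10 of lysosomal proteins and 4 of 8 of fusion and traffic, while Mitf was not. The strongest peak was at mtd, a TLDc domain gene, with signal 553, a summit 217 bp upstream of a TSS and ranks of 262, 309 and 297, which made it stronger than any V-ATPase peak. Its span of 80328 bp held 4 summits.

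Lamtor3, a part of the Ragulator complex that anchors nutrient sensing to the V-ATPase, had a summit 49 bp upstream with signal 254 and ranks of 1957, 1032 and 1284. Syx17, the SNARE of autophagosomes, had one 105 bp upstream with signal 235 and ranks of 1552, 1093 and 1935. Rab7, the late endosomal GTPase, had one 16 bp downstream of its TSS with signal 174 and ranks of 1306 and 1905 in replicates 1 and 3, with no summit within 100 bp in replicate 2. RagA-B, a Rag GTPase gene, had one 517 bp upstream with signal 161, nearest to CG11970, and ranks of 2201, 2610 and 2791. mTor shared the peak of Vha68-1 described above.

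Long genes among the unbound ones were Mitf (25616 bp, with no pooled entry), lt (18341 bp, no pooled entry), Rbcn-3A (14743 bp, best pooled rank 6017) and Rbcn-3B (7906 bp, best pooled rank 12340). At Rbcn-3B, however, 2 replicates held an entry among their strongest. The lt product acts in vacuolar fusion, and the Rbcn-3 proteins are rabconnectins that promote V-ATPase assembly.

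Where no IDR summit was called the lists still held weak entries. Of the 19 unbound V-ATPase genes 14 had a pooled entry below the IDR limit and 5 had none (Vha100-3, Vha100-5, Vha16-2, Vha14-2 and VhaAC39-1), so that 28 of 33 genes had an entry of some rank, against 75.0% of all protein-coding genes. Among the 14, the best pooled ranks ran from 5900 at Vha100-1 to 26519 at VhaM9.7-d. The weakest bound gene, VhaAC45RP, stood at rank 3717 and the strongest unbound one at 5900, with none between.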

How the data were processed

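Peak lists of 3 ChIP-seq replicates of Antp-eGFP embryos, 1 group, were used in dm6; dm3 lists were not used. Per the description files deposited with the samples, the authors called each replicate's entries, and those of the pooled replicates, against a control, and derived the optimal IDR list from them. The signal the authors deposited per peak has no stated scale, and the deposited −log10 q-value served only as an alternative ranking. Aligner, peak caller and IDR cutoff: not given in the sources used here. Depth is unknown.

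Gene models were those of Ensembl release 115, and sequence was the RefSeq copy of dm6. Coordinates are 1-based. A replicate entry was matched to an IDR peak when its summit was the nearest and within 100 bp. The nearest TSS was taken over all annotated genes. Intervals are exact (Clopper-Pearson, 95%). With 1 group there is nothing to compare, so no p-value is given. All V-ATPase genes are named, with up to 6 bound and 4 unbound genes of the list of 31. Members, lists and motifs were chosen with earlier results of these data known. Alternatives were other extensions, TSS distances, peak sets, rankings, motif windows and matching rules, and leaving out each replicate. The counting rules were tested on simulated data. Python 3.11.15, numpy 2.4.6, pandas 2.3.3 and scipy 1.17.1 were used.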

Additional observations from a re-analysis of the deposited data

How the results depend on the processing

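Of 54 alternatives for counts and medians 18 moved a value beyond its limit, which for a count was 1.5 times. With no extension of the span 2 of 33 V-ATPase genes and 4 of the 31 pathway genes (12.9%) were bound, against 11.8% of all protein-coding genes, and with an extension of 5000 bp 21 and 19 were, against 48.7%. With all pooled entries the counts were 28 V-ATPase and 26 pathway genes by span (75.0% of all protein-coding genes), 23 V-ATPase genes by nearest TSS (66.2%) and 22 within 500 bp of a TSS (51.6%), and with all entries of each replicate 28 were bound in all 3 (61.6%), because the lists then include background. With only the IDR peaks above the median signal 10 V-ATPase genes (30.3%) and 5 pathway genes (16.1%) were bound, against 17.9% of all protein-coding genes, so the pathway share then lay below that of all genes. The peak midpoint and the q-value ranking each gave 14. Leaving out replicate 1, 2 or 3 gave 14, 12 and 11 genes bound in both others, against 25.6%, 25.1% and 25.3% of all protein-coding genes. The median replicate signal at member peaks was then 66.4 to 71.0 (68.4 with all 3). Motif counts rested on single summits: with windows of 50 bp the E-box count was 0, with 250 bp the E-box, DNA replication-related element, Hox core, GAGA and ribosomal initiator counts were 3, 2, 15, 2 and 1, and over the 11 promoter peaks alone the DNA replication-related element and GAGA counts were 0 and the Hox core count was 5. With matching by a reciprocal overlap of 50%, 13 of 18 summits were matched in all replicates and 3 in none. By any overlap, the second summit of Vha100-2 took the entry of its stronger neighbour, with a mean rank of 768 in place of 6354, and the third had a mean rank of 3558 in place of 6727. No paired analysis was possible because there is only 1 group.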
